A study of Homo sapiens with 12 samples.

Results

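A set of 10 genes of the cytosolic and mitochondrial heat shock system was followed across poly(A)+ RNA libraries from HEK293 cells in which SAFB proteins had been depleted. They were taken by name from the 58780 gene rows of the count files (26688 of them had enough counts to be tested, all 10 included): HSPA8, HSPA4, HSPA4L, HSPH1, DNAJA1, DNAJB1, HSPB1, HSPD1, HSPE1 and CHORDC1. The cells were Flp-In T-REx HEK293, a human embryonic kidney line, and 4 groups of 3 libraries were compared. Triple KD cells had been transfected with siRNAs against SAFB1, SAFB2 and SLTM together, SLTM KD and SAFB1 KD cells with 1 of those siRNAs plus negative control siRNA, and control cells with control siRNA alone. RNA was taken 2 days later. Each target was hit with a single siRNA, and cells with SAFB2 depleted on its own are not analysed here. The series text calls the 3 libraries of a group biological replicates.

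HSP70 chaperones bind stretches of unfolded protein in cycles of ATP hydrolysis. J-domain proteins bring clients and start hydrolysis, and HSP110 proteins act as nucleotide exchange factors that let the client go. Small heat shock proteins hold unfolding proteins without ATP, and in mitochondria the HSP60 barrel with its HSP10 lid folds imported proteins. Many genes of the cytosolic branch, and the HSP60 pair, are classic targets of heat shock factor 1 (HSF1). This factor binds promoters at heat shock elements, repeats of GAA and TTC units in alternating orientation.

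The promoters are shown first because heat shock elements are the known regulatory sites of this system. RefSeq gives 15 promoter windows (GRCh38.p14, 250 bases before to 50 after a transcription start) for the 10 genes, and all 10 were matched. Both strands were covered by searching GAANNTTC and TTCNNGAA, each of which reads the same on the other strand. Such a pair of opposed units was found in a window of 7 of the 10 genes, and in 13.5% of all 35116 windows of this length. A run of at least 3 alternating units, each 2 bases from the next, was found for 4 of the 10 (CHORDC1, HSPA8, HSPD1 and DNAJA1), and in 0.49% of all windows. The 10 were counted by gene over all their windows, with several windows for HSPA4L, DNAJB1 and HSPD1. The shares are of single windows, so that gene counts and window shares are not on the same scale. The 4 windows are printed 5′ to 3′ on the strand of the gene, with every matched unit run in capitals; each capital run holds alternating GAA and TTC. Their places are chr11:90223000-90223299 (CHORDC1, minus strand), chr11:123062087-123062386 (HSPA8, minus strand), chr2:197499791-197500090 (HSPD1, minus strand) and chr9:33025023-33025322 (DNAJA1, plus strand).
CHORDC1: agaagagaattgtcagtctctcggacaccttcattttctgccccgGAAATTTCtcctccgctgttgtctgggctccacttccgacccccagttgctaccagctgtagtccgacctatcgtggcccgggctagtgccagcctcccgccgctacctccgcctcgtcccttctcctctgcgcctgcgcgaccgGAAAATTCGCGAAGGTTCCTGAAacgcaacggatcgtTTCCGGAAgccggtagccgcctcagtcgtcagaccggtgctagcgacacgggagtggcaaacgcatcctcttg
HSPA8: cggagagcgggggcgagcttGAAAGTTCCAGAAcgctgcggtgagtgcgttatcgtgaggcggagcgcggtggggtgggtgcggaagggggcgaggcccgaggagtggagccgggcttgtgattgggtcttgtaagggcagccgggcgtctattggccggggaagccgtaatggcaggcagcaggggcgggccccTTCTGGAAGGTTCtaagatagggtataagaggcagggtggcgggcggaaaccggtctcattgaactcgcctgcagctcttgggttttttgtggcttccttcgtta
HSPD1: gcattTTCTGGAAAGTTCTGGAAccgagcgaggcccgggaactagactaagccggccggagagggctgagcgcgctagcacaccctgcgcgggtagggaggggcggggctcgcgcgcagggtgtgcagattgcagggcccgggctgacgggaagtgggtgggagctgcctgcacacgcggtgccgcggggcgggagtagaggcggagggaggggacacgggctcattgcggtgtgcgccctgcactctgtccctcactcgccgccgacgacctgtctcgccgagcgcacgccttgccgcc
DNAJA1: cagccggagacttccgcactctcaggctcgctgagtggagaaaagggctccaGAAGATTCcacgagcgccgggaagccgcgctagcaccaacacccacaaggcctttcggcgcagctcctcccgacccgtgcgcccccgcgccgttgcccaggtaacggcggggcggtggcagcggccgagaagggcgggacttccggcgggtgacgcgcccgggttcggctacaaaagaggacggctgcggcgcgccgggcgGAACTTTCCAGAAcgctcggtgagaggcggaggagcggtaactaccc

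CHORDC1 had the longest run, 5 units that begin 60 bases before the start. Runs of at least 5 units stood in 4 of the 35116 windows (0.0114%). HSPA8 had separate runs of 3 units at -230 and -55, HSPD1 a run of 4 units at -245 of its downstream start, and DNAJA1 a run of 3 units 3 bases into the transcript. HSPD1 and HSPE1 are on opposite strands, and their annotated exons share 135 bases. The HSPD1 run (chr2:197500068-197500085) is between that downstream start of HSPD1 and the RefSeq start of HSPE1. It is 228 bases from the former and 294 bases from the latter, outside the HSPE1 window. The annotated span of HSPE1 begins nearer to it, at 197500140. From the upstream RefSeq start of HSPD1 (window chr2:197500225-197500524) the run lies downstream. HSPA4L, DNAJB1 and HSPB1 had only single pairs, and HSPA4, HSPH1 and HSPE1 had none in their windows. These are matches of letters and not measurements of binding.

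**Figure D1:**
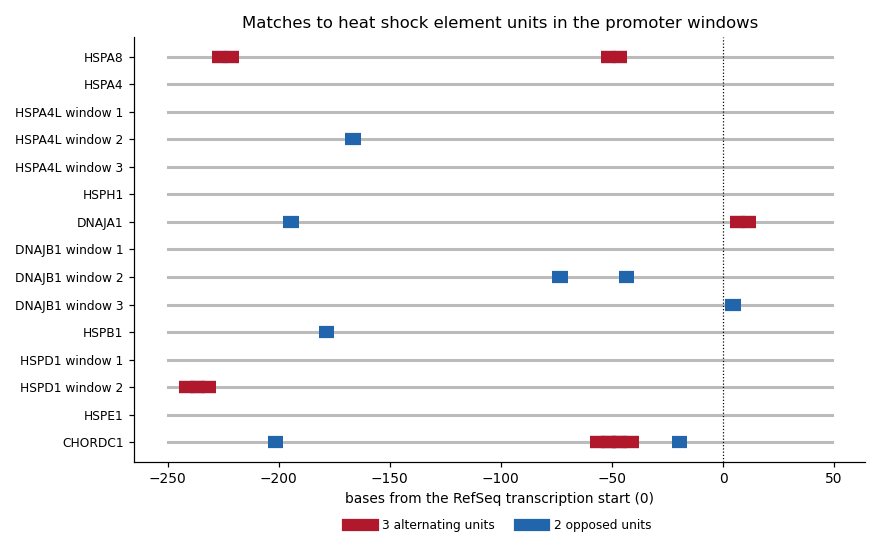
Runs of at least 3 alternating GAA and TTC units (red) and single pairs of opposed units (blue) in the 15 RefSeq promoter windows of the 10 genes, 1 grey line a window, by distance in bases from the transcription start (x axis, start at 0). CHORDC1 holds the widest red block, at -60, and HSPA4, HSPH1 and HSPE1 have no match.

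Libraries held 56856228 to 75533510 counts, and the biological coefficient of variation over genes was 2.14%. Values are CPM (the reads of a gene as a share of its library, brought to 1 common total) after TMM scaling, in the order replicate 1, 2 and 3, and a difference is a log2 fold change ± its standard error from edgeR's quasi-likelihood test with all 12 libraries in 1 fit. A gene was called at a Benjamini-Hochberg adjusted p below 0.05 over all genes tested. The siRNA targets followed the labels. The SAFB transcript (the SAFB1 gene) was at 16.5% of its control mean in triple KD and 19.5% in SAFB1 KD, SLTM at 21.6% in triple KD and 17.7% in SLTM KD, and SAFB2 at 23.1% in triple KD. In SAFB1 KD, SAFB2 was at 166% and SLTM at 120% of control. All 8 HEK293 marker genes were above 1 CPM in every group, but their sum was lower in triple KD (1807 to 1832 CPM) than in control (1966 to 1974 CPM). Summed markers of leukocytes stayed at 0.417 to 0.963 CPM. One marker of colon epithelium (CDX2), 1 of squamous epithelium (SFN) and 2 of fibroblasts (COL1A1 and COL3A1) also passed 1 CPM in every group, with summed levels of those lists that overlapped between triple KD and control for colon and fibroblast markers and ran 5.23 to 5.70 CPM in triple KD against 4.74 to 4.85 CPM in control for squamous markers. The part of these marker differences in the results was not tested.

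Triple knockdown lowered 7 of the 10 genes and raised 2. The falls were largest for CHORDC1, HSPA4L and HSPA8, at 35.1%, 34.4% and 22.1%, and the clearest rise was in HSPB1, by 34.8%. Over all 26688 genes, 20.9% were called lower and 19.4% higher in triple KD (5591 and 5174 genes, against 4886 and 5963 with upper-quartile scaling). Among the 8202 genes whose mean level lay within the range of the 10, 37.0% were called lower and 35.1% higher. The median log2 fold change was -0.10 over the 10 genes, against -0.00 over all genes and -0.01 over those of like level. The median absolute change was 0.21 over the 10, 0.27 over all genes and 0.14 over those of like level. Per kb of canonical transcript, the control levels ran from 881 CPM per kb for HSPA8 and 474 for HSPD1, through 124 for DNAJA1, 90.1 for HSPA4, 66.7 for HSPE1, 65.5 for DNAJB1, 47.1 for HSPH1, 33.6 for CHORDC1 and 23.2 for HSPB1, to 9.78 for HSPA4L. In bulk RNA, fewer transcripts per cell and fewer cells that make them cannot be told apart.

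HSPA8 encodes the constitutive cytosolic HSP70 (HSC70) and was the most abundant of the 10 transcripts, at 881 CPM per kb of transcript in control cells. It had 1524, 1562 and 1574 CPM in triple KD, 1914, 1922 and 1906 CPM in SLTM KD, 1965, 2014 and 2064 CPM in SAFB1 KD, and 1960.0, 2001 and 2022 CPM in control libraries. All triple KD libraries lay well below the other 9, SLTM KD libraries lay just below control libraries, and SAFB1 KD overlapped control. The log2 fold change was -0.36 ± 0.02 in triple KD (adjusted p = 3.14e-27) and 0.01 ± 0.02 in SAFB1 KD (adjusted p = 0.719). In SLTM KD it was -0.06 ± 0.02 (adjusted p = 0.0145). That call was lost without control replicate 3 (adjusted p = 0.0522), without SLTM KD replicate 1 (adjusted p = 0.0542) and with upper-quartile scaling (adjusted p = 0.158). HSPA8 spans chr11:123057489-123063230 on the minus strand, and 3.74% of the 100-base windows of its canonical transcript recur without a mismatch at 1 other place in the genome.

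**Figure D2:**
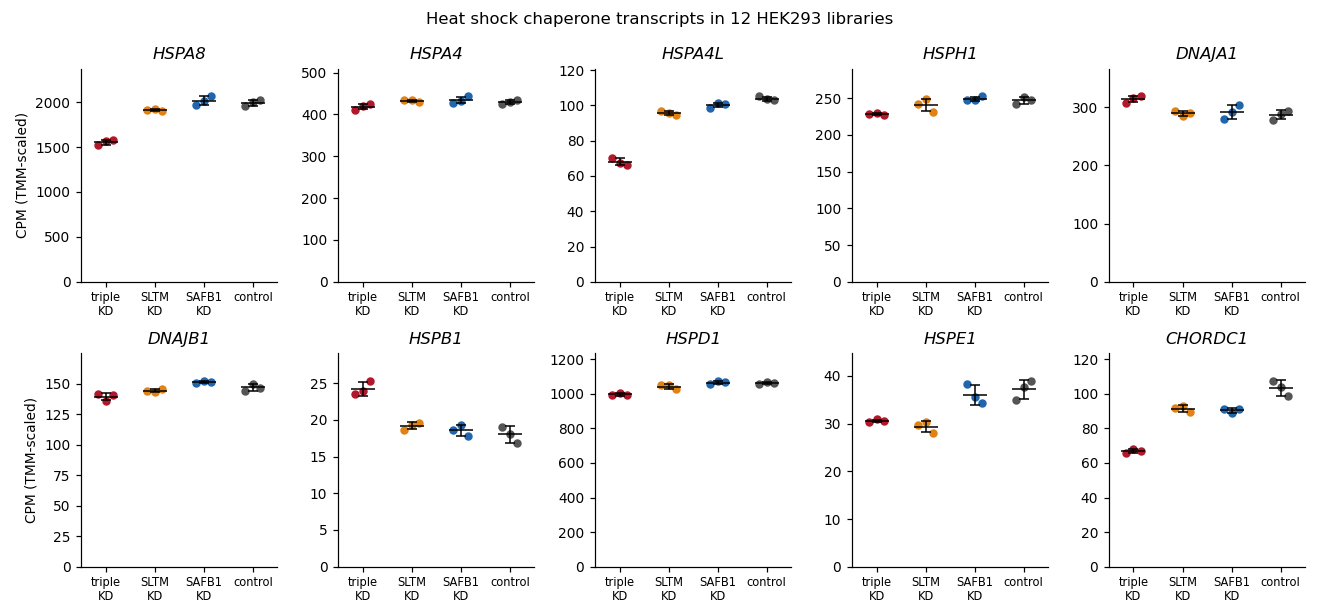
CPM (y axis, from 0) of the 10 genes in the 12 libraries, 1 point a library, with group means and SD (n = 3) as black bars, for triple KD, SLTM KD, SAFB1 KD and control (x axis). Triple KD libraries of HSPA8 (1524 to 1574 CPM), HSPA4L (66.3 to 70.3 CPM) and CHORDC1 (65.7 to 67.9 CPM) lie below all others, and those of HSPB1 (23.5 to 25.2 CPM) above all others.

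The 3 HSP110 genes, whose products share the exchange-factor role, changed by different amounts. HSPA4 (chr5:133052013-133106449, plus strand), also known as APG-2, had 411, 420.0 and 424 CPM in triple KD, 433, 435 and 429 CPM in SLTM KD, 428, 432 and 443 CPM in SAFB1 KD, and 425, 431 and 435 CPM in control. Triple KD libraries were all below the control ones, but by little, and the log2 fold change of -0.04 ± 0.02 missed the threshold (adjusted p = 0.0908). The test was passed with the replicate block (adjusted p = 0.0358), with limma-voom (adjusted p = 0.0222) and without a count filter (adjusted p = 0.0407). SLTM KD and SAFB1 KD overlapped control, with log2 fold changes of 0.01 ± 0.02 each (adjusted p = 0.908 in SLTM KD and 0.779 in SAFB1 KD).

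HSPA4L (chr4:127781821-127840733, plus strand), a paralogue known from mouse for a role in male germ cells, was lower by far more. It had 70.3, 67.6 and 66.3 CPM in triple KD, 96.6, 95.5 and 94.5 CPM in SLTM KD, 98.7, 101 and 101 CPM in SAFB1 KD, and 105, 103 and 103 CPM in control. No triple KD library came near the others, and both single knockdowns lay below control without overlap. The log2 fold change was -0.61 ± 0.03 in triple KD (adjusted p = 1.57e-29), -0.12 ± 0.03 in SLTM KD (adjusted p = 0.000581) and -0.05 ± 0.03 in SAFB1 KD, which did not pass (adjusted p = 0.244). HSPH1 (chr13:31134973-31162388, minus strand), the heat-inducible HSP110 (HSP105), had 229, 229 and 228 CPM in triple KD, 242, 248 and 232 CPM in SLTM KD, 247, 248 and 252 CPM in SAFB1 KD, and 243, 251 and 247 CPM in control. Triple KD libraries lay below all others, and the single knockdowns overlapped control. HSPH1 fell by 0.11 ± 0.02 on the log2 scale in triple KD (adjusted p = 1.45e-05), and neither SLTM KD (-0.04 ± 0.02, adjusted p = 0.369) nor SAFB1 KD (0.01 ± 0.02, adjusted p = 0.825) passed.

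A ratio of 2 genes within a library does not depend on how libraries are scaled. For every 100 counts of HSPA4 there were 17.1, 16.1 and 15.6 counts of HSPA4L in triple KD, 22.3, 21.97 and 22.1 in SLTM KD, 23.1, 23.5 and 22.8 in SAFB1 KD, and 24.7, 24.0 and 23.6 in control. The 4 groups of this ratio did not overlap. HSPH1 stood at 55.6, 54.6 and 53.7 per 100 counts of HSPA4 in triple KD and at 57.1, 58.3 and 56.8 in control, a narrower gap, also without overlap. SLTM KD, at 55.8, 57.1 and 54.1, overlapped both triple KD and control. SAFB1 KD, at 57.8, 57.4 and 57.0, overlapped control. These ratios mix genes of unequal length, so that only their change between groups can be read.

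DNAJA1 (chr9:33025273-33039907, plus strand), a type I J-domain protein that works with HSC70, was raised. It had 308, 316 and 319 CPM in triple KD, 293, 285 and 289.6 CPM in SLTM KD, 280.0, 291 and 304 CPM in SAFB1 KD, and 279, 288 and 294 CPM in control. Triple KD libraries were above all other 9, and both single knockdowns overlapped control. The log2 fold change was 0.13 ± 0.02 in triple KD (adjusted p = 1.63e-06), 0.01 ± 0.02 in SLTM KD (adjusted p = 0.863) and 0.02 ± 0.02 in SAFB1 KD (adjusted p = 0.655). DNAJB1 (chr19:14514769-14560391, minus strand), the heat-inducible type II J-domain protein HSP40, had 141, 136 and 141 CPM in triple KD, 144, 143 and 145 CPM in SLTM KD, 150.4, 152 and 151 CPM in SAFB1 KD, and 144, 149.7 and 146 CPM in control. Triple KD libraries lay just below the control ones and SAFB1 KD libraries just above them. DNAJB1 fell by 0.08 ± 0.02 on the log2 scale in triple KD (adjusted p = 0.00464). The call was lost without triple KD replicate 2 (adjusted p = 0.0929), without control replicate 2 (adjusted p = 0.0505) and with upper-quartile scaling (adjusted p = 0.139). In SLTM KD (-0.03 ± 0.02, adjusted p = 0.579) and SAFB1 KD (0.04 ± 0.02, adjusted p = 0.274) it did not pass. The opposite movement of the pair showed within libraries: there were 46.0, 42.9 and 44.1 counts of DNAJB1 per 100 of DNAJA1 in triple KD, and 51.7, 51.9 and 49.8 in control.

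HSPB1 (chr7:76302673-76304295, plus strand) encodes HSP27, a small heat shock protein that also binds actin. It had the fewest counts of the 10, with 1004 to 1659 a library. It had 23.5, 23.9 and 25.2 CPM in triple KD, 18.7, 19.3 and 19.6 CPM in SLTM KD, 18.6, 19.4 and 17.8 CPM in SAFB1 KD, and 19.1, 18.1 and 16.8 CPM in control. Triple KD libraries lay above the other 9, and the single knockdowns overlapped control. The log2 fold change was 0.43 ± 0.04 in triple KD (adjusted p = 1.31e-12), 0.09 ± 0.05 in SLTM KD (adjusted p = 0.245) and 0.05 ± 0.05 in SAFB1 KD (adjusted p = 0.624). Of the 100-base windows of its transcript, 6.05% recur without a mismatch at 1 other place in the genome, and reads that fit both places equally are not in the counts.

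**Figure D3:**
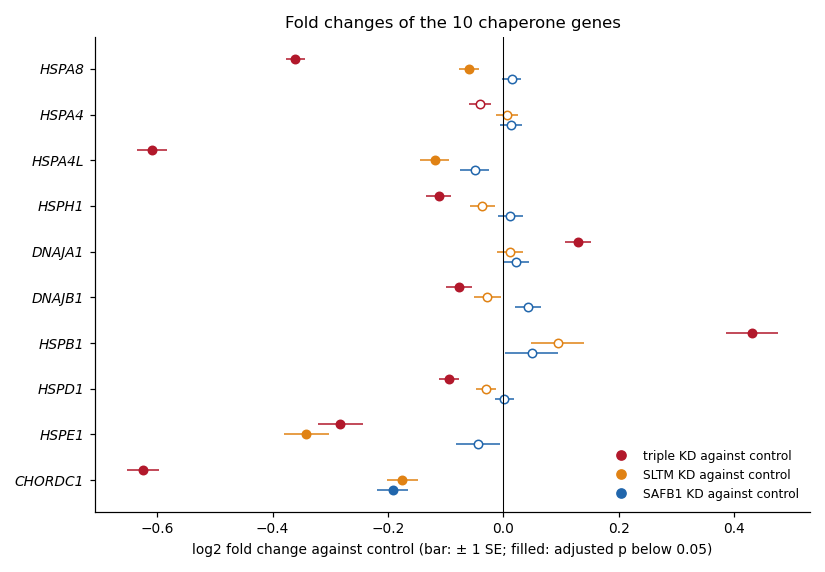
Log2 fold change against control (x axis) of the 10 genes (rows) in triple KD (red), SLTM KD (orange) and SAFB1 KD (blue), with ± 1 standard error; filled points passed an adjusted p of 0.05. Triple KD spans -0.62 (CHORDC1) to 0.43 (HSPB1), and CHORDC1 is the only filled blue point.

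HSPD1 and HSPE1 encode the mitochondrial chaperonin HSP60 and its co-chaperonin HSP10. HSPD1 (chr2:197486584-197516737, minus strand) had 991, 1005 and 994 CPM in triple KD, 1049.5, 1049 and 1027 CPM in SLTM KD, 1054, 1072 and 1069 CPM in SAFB1 KD, and 1059, 1069 and 1063 CPM in control. Triple KD libraries lay below all others, and SLTM KD libraries below the control ones. HSPD1 fell by 0.09 ± 0.02 on the log2 scale in triple KD (adjusted p = 3.24e-06), and neither SLTM KD (-0.03 ± 0.02, adjusted p = 0.328) nor SAFB1 KD (0.00 ± 0.02, adjusted p = 0.972) passed. HSPE1 (chr2:197500140-197503449, plus strand) had 30.4, 30.9 and 30.5 CPM in triple KD, 29.8, 30.3 and 28.1 CPM in SLTM KD, 38.4, 35.6 and 34.3 CPM in SAFB1 KD, and 34.9, 37.8 and 38.9 CPM in control. All SLTM KD and triple KD libraries lay below all SAFB1 KD and control ones. Of the genes lower in triple KD, HSPE1 was the one whose SLTM KD libraries all lay below the triple KD ones. Against control it changed by -0.28 ± 0.04 in triple KD (adjusted p = 8.09e-09), -0.34 ± 0.04 in SLTM KD (adjusted p = 1.41e-09) and -0.04 ± 0.04 in SAFB1 KD (adjusted p = 0.597), and triple KD against SLTM KD gave 0.06 ± 0.04 (adjusted p = 0.290).

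Part of the HSPE1 transcript may not reach the counts. Of its 557-base canonical transcript, 192 bases (34.5%) are shared on the same strand with HSPE1-MOB4, a readthrough gene, and the authors' counting left out a read that overlaps 2 genes. HSPE1-MOB4 itself had 0 counts in all 12 libraries. Per kb of transcript HSPE1 stood at 66.7 CPM in control cells, against 474 CPM for HSPD1, and 11.6% of the 100-base windows of HSPE1 and 12.3% of those of HSPD1 recur elsewhere in the genome. MOB4, the downstream gene of the readthrough, moved in the same groups: it had 20.9 ± 1.87 CPM in triple KD, 27.3 ± 1.89 CPM in SLTM KD, 32.4 ± 2.59 CPM in SAFB1 KD and 34.6 ± 1.88 CPM in control (SD, n = 3 each), with log2 fold changes of -0.72 ± 0.05 in triple KD (adjusted p = 4.42e-20) and -0.34 ± 0.05 in SLTM KD (adjusted p = 1.55e-07). Reads of MOB4 that also overlap HSPE1-MOB4 would be left out by the same rule. What part the shared locus has in the HSPE1 and MOB4 values was not tested. Within libraries there were 3.07, 3.07 and 3.07 counts of HSPE1 per 100 of HSPD1 in triple KD, 2.84, 2.89 and 2.73 in SLTM KD, 3.64, 3.32 and 3.21 in SAFB1 KD, and 3.29, 3.53 and 3.66 in control.

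**Figure D4:**
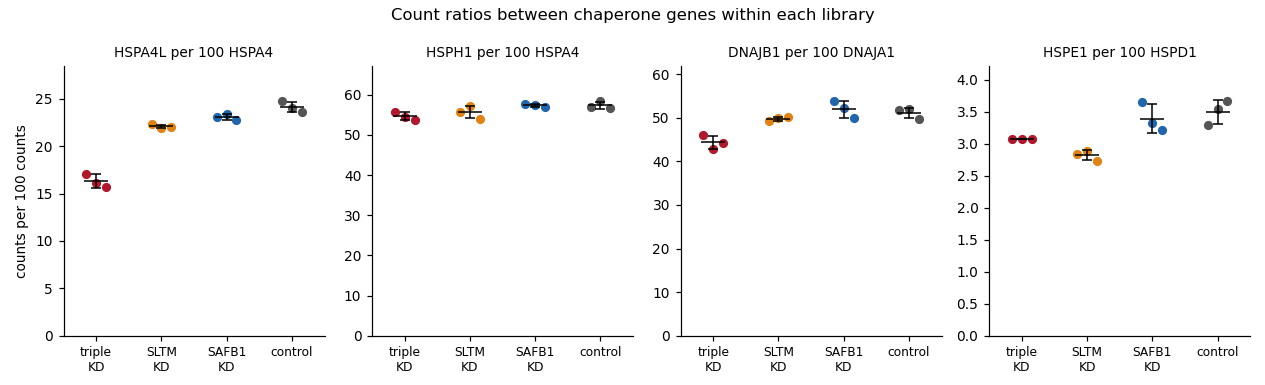
Counts of 1 gene per 100 counts of another within each library (y axis, from 0) for 4 pairs, 1 point a library, with group means and SD (n = 3), for triple KD, SLTM KD, SAFB1 KD and control (x axis). HSPA4L per 100 HSPA4 lies between 15.6 and 17.1 in triple KD, below all other libraries, while HSPE1 per 100 HSPD1 is lowest in SLTM KD (2.73 to 2.89).

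CHORDC1 (chr11:90200429-90223077, minus strand) encodes CHP-1 (morgana), a zinc-binding co-chaperone of HSP90. It had 65.7, 67.9 and 67.2 CPM in triple KD, 91.6, 93.3 and 89.5 CPM in SLTM KD, 91.2, 88.9 and 91.2 CPM in SAFB1 KD, and 107, 104 and 98.5 CPM in control. Triple KD libraries were far below the rest, and both single knockdowns lay below every control library. It was the only gene of the 10 called in all 3 knockdowns: the log2 fold change was -0.62 ± 0.03 in triple KD (adjusted p = 9.55e-29), -0.17 ± 0.03 in SLTM KD (adjusted p = 2.00e-06) and -0.19 ± 0.03 in SAFB1 KD (adjusted p = 2.21e-07). The 2 single knockdowns differed from each other by -0.02 ± 0.03 (SAFB1 KD against SLTM KD, adjusted p = 0.783). The 3 knockdowns share their control libraries, so their values are not independent.

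In SAFB1 KD only CHORDC1 of the 10 was called, lower; none was called higher. Of all genes 4.62% were called lower and 5.04% higher in this comparison, and of the genes of like level 8.56% lower and 13.4% higher, so 1 of 10 is near the background. The other 9 had log2 fold changes from -0.05 (HSPA4L) to 0.05 (HSPB1). In SLTM KD 4 of the 10 were called lower (HSPE1, CHORDC1, HSPA4L and HSPA8) and none higher, against 5.65% lower and 3.6% higher over all genes and 14.5% lower and 7.21% higher over those of like level. With upper-quartile scaling the split over all genes turned round, with 1552 genes higher and 1146 lower (57.5% higher) in place of 962 higher and 1509 lower (38.9% higher), and HSPE1, CHORDC1 and HSPA4L were still called lower. The median log2 fold change of the 10 was 0.01 in SAFB1 KD and -0.03 in SLTM KD, against 0.00 over all genes in both.

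The triple knockdown was also set against each single one. Against SAFB1 KD all 10 were called, 8 lower and 2 higher, with 18.6% of all genes lower and 16.2% higher, and 38.1% lower and 28.2% higher among those of like level. HSPA4L differed by -0.56 ± 0.03 on the log2 scale (adjusted p = 2.98e-27), CHORDC1 by -0.43 ± 0.03 (adjusted p = 1.38e-20) and HSPA8 by -0.37 ± 0.02 (adjusted p = 7.77e-28), and HSPB1 by 0.38 ± 0.05 (adjusted p = 1.51e-10). HSPA4 differed least, by -0.05 ± 0.02 (adjusted p = 0.0229), and its call was lost under 9 of 19 alternatives. Against SLTM KD 6 were called lower and 2 higher, with 18.8% of all genes lower and 17.5% higher, and 32.4% lower and 35.2% higher among those of like level. HSPE1 and DNAJB1 did not pass (DNAJB1 did with the replicate block, adjusted p = 0.0496), HSPA4 passed narrowly (-0.05 ± 0.02, adjusted p = 0.0487) and lost its call under 14 of 19 alternatives, and HSPH1 (-0.08 ± 0.02, adjusted p = 0.00394) lost its call without SLTM KD replicate 2 (adjusted p = 0.121). SAFB1 KD against SLTM KD gave 3 genes called higher in SAFB1 KD and none lower, with 9.27% of all genes higher and 6.78% lower. Among genes of like level 24.5% were higher and 10.9% lower, so that 3 of 10 is near that share. These were HSPE1 (0.30 ± 0.04, adjusted p = 4.35e-08), HSPA8 (0.07 ± 0.02, adjusted p = 0.000898) and DNAJB1 (0.07 ± 0.02, adjusted p = 0.0243). DNAJB1 lost its call without any 1 of SAFB1 KD replicates 1, 2 and 3 or SLTM KD replicates 1 and 2. The highest adjusted p in those fits was 0.113. The call was also lost with upper-quartile scaling (adjusted p = 0.141) and with only the libraries compared (adjusted p = 0.0507). Upper-quartile scaling turned the split over all genes here as well, from 57.8% higher in SAFB1 KD to 43.2%. It also took the share of higher calls from 46.6% to 55.9% in triple KD against SAFB1 KD and from 48.2% to 52.0% in triple KD against SLTM KD.

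If the effects of the single knockdowns only added up on the log2 scale, triple KD would equal their sum. Cells with SAFB2 depleted alone are not analysed here, so that any departure from this sum holds the effect of the SAFB2 siRNA as well. Of the 10 genes 6 were called lower than the sum and 2 higher, with 11.9% of all genes lower and 9.48% higher. Among genes of like level 25.5% were lower and 20.6% higher, so that 2 of 10 higher is near that share. HSPA4L departed by -0.44 ± 0.04 (adjusted p = 1.43e-15), HSPA8 by -0.32 ± 0.02 (adjusted p = 6.20e-17), CHORDC1 by -0.26 ± 0.04 (adjusted p = 2.74e-07) and HSPB1 by 0.29 ± 0.06 (adjusted p = 0.000424), and these 4 were called under all 18 alternatives tried other than the 2-fold test. DNAJA1 departed by 0.10 ± 0.03 (adjusted p = 0.0211), a call lost without SAFB1 KD replicate 1 or without triple KD replicate 3 (highest adjusted p = 0.0662). The departures of HSPH1 (-0.09 ± 0.03, adjusted p = 0.0306), DNAJB1 (-0.09 ± 0.03, adjusted p = 0.0318) and HSPD1 (-0.07 ± 0.02, adjusted p = 0.0382) were lost under 12 to 14 of the 18 alternatives. HSPE1 (0.10 ± 0.06, adjusted p = 0.218) and HSPA4 (-0.06 ± 0.03, adjusted p = 0.113) did not pass. The HSPE1 departure was 0.17 and called without SAFB1 KD replicate 1 (adjusted p = 0.0306), and that of HSPA4 was called with the replicate block (adjusted p = 0.0404) and with limma-voom (adjusted p = 0.0410).

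**Figure D5:**
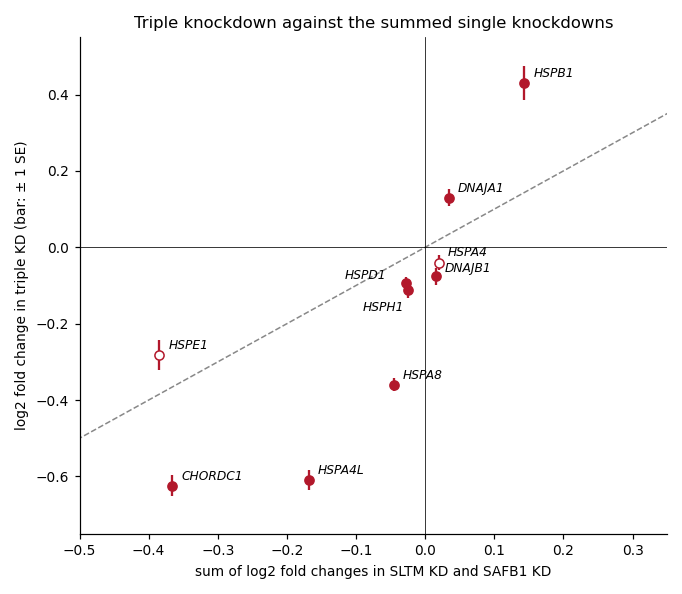
Log2 fold change in triple KD (y axis, ± 1 standard error) against the sum of those in SLTM KD and SAFB1 KD (x axis) for the 10 genes; the dashed line marks equality, and filled points departed from it at an adjusted p below 0.05. HSPA4L, HSPA8 and CHORDC1 lie farthest under the line, HSPB1 farthest above it, and HSPA4 (open) nearest to it.

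Other sequence features of the 10 were set beside these values. The study names GAAGAA as the motif that SAFB proteins recognize. Counted without overlap on the sense strand of the gene body, CHORDC1 had 21 in 22.6 kb (0.927 per kb, above 95.6% of 20033 protein-coding genes), DNAJA1 0.752 per kb and HSPH1 0.693 per kb, against a median of 0.443 per kb. HSPA4L had 0.475 per kb in 58.9 kb and HSPA4 0.570 per kb in 54.4 kb. HSPD1 had 0.663 per kb, HSPB1 0.616 per kb (1 match) and HSPA8 0.523 per kb (3 matches). DNAJB1 (0.329 per kb) and HSPE1 (0.302 per kb, 1 match) lay below the median. The part of the motif in these changes was not tested.

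The siRNAs are shown because a short match to their guide strand is a known way for an siRNA to touch other transcripts. The sense strands follow, with the 7 bases in capitals that equal the site pairing with guide bases 2 to 8.
SAFB1 siRNA: ggaccaagaugAUCAGAAatt
SAFB2 siRNA: ggacggucgugAUGGAUAatt
SLTM siRNA: gcauuagaauaAUUCGUGatt

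After the coding sequence of the canonical transcripts, CHORDC1 and DNAJA1 each had 1 site of the SAFB1 siRNA, HSPA4L had 1 site of the SAFB2 siRNA, and none of the 10 had a site of the SLTM siRNA. Over 19235 transcripts, 15.98% held at least 1 site of the SAFB1 siRNA, 9.57% of the SAFB2 siRNA and 2.09% of the SLTM siRNA. CHORDC1 was called lower in SAFB1 KD, SLTM KD and triple KD. DNAJA1 was not called in SAFB1 KD and was higher in triple KD, both of which had the SAFB1 siRNA. HSPA4L fell by 0.61 ± 0.03 on the log2 scale in triple KD, the only group given the SAFB2 siRNA. It was also called lower in SLTM KD, without that siRNA (-0.12 ± 0.03). Its stretch after the coding sequence is 7862 bases, the longest of the 10, and the shares over all transcripts were not matched for length. The effect of the sites was not tested.

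The 3 genes of the widest range between group means were CHORDC1, HSPA4L and HSPB1. Of 9929 genes with a symbol and a mean of at least 10 CPM, those whose log2 CPM ran closest to CHORDC1 over the 12 libraries, after centring each gene, were PDSS2 (root mean square difference 0.0278), PIGK (0.0385) and TRA2A (0.0408). Closest to HSPA4L were MAGT1 (0.0281), SERBP1 (0.0304) and IDH1 (0.0333), and closest to HSPB1 were ARID1A (0.0485), TMEM178B (0.0496) and ZBED3 (0.0497).

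By uniquely placed reads, copies of these genes in the genome stayed near the floor of detection. Reads that fit a copy and its parent equally were not counted, so that these values may understate the copies. Pseudogenes named after 7 of the 10 numbered 75, of which 27 had enough counts to be tested and 28 had no count in any library. None averaged above 0.837 CPM, and together they held 2819 counts. HSPB1P2 alone was called, higher in triple KD, and none was called in SLTM KD or SAFB1 KD: it had 24, 27 and 20 counts in triple KD and 15, 14 and 14 counts in control (log2 fold change 0.88 ± 0.31, adjusted p = 0.0187). All HSPB1 pseudogene counts together came to 1.29% of those of HSPB1.

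Genes that work beside the 10 were read from lists of known members. The counts of each list stand beside 20.9% of all genes called lower and 19.4% called higher in triple KD. Among genes within the level range of the 10, these shares were 37.0% and 35.1%. In SLTM KD 5.65% of all genes were called lower and 3.6% higher, and in SAFB1 KD 4.62% and 5.04%. Whether any list differed from these shares was not tested. Of 6 tested heat shock factor genes and binding partners, 3 were lower in triple KD and none higher: HSF1, the master factor, fell by 0.21 ± 0.03 on the log2 scale (adjusted p = 1.71e-09), its negative regulator HSBP1 by 0.19 ± 0.02 (adjusted p = 1.63e-11) and HSF4 by 0.26 ± 0.09 (adjusted p = 0.0152). HSF1 averaged 71.7 CPM in triple KD and 82.8 CPM in control. With upper-quartile scaling 1 gene of this list was also called higher. In SLTM KD 1 gene of the list was called lower, and in SAFB1 KD 1 higher.

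Of 9 other HSP70 genes 4 were lower in triple KD and none higher, beside 20.9% lower and 19.4% higher over all genes. HSPA13, a microsomal HSP70, fell by 0.46 ± 0.03 on the log2 scale, stress-inducible HSPA1B by 0.33 ± 0.03 and ribosome-associated HSPA14 by 0.17 ± 0.03. HSPA1B averaged 381 CPM in triple KD and 480.2 CPM in control while its near-identical copy HSPA1A averaged 0.673 CPM in triple KD and 0.785 CPM in control, so that the share of each copy in these counts is uncertain. In SLTM KD 2 of these 9 genes were called lower, and in SAFB1 KD 1.

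In triple KD, of a list of 19 other J-domain genes, 6 were called higher and 5 lower. DNAJC8, a splicing-linked J-domain gene, was higher by 0.22 ± 0.02 on the log2 scale, DNAJC13 by 0.27 ± 0.03 and DNAJB5 by 0.64 ± 0.07, and DNAJB4 fell by 0.85 ± 0.06, DNAJB14 by 0.35 ± 0.04 and DNAJC27 by 0.49 ± 0.07. DNAJB4 and DNAJB5 were scarce, at 7.34 and 7.74 CPM in triple KD against 13.3 and 4.99 CPM in control. Of 9 genes for BAG proteins and other HSP70 regulators 6 were lower and 1 higher. The list holds exchange factors, which release clients, and also ST13 (Hip), which slows that release, and the ubiquitin ligase STUB1. BAG5 fell by 0.42 ± 0.03, the HSF1 target BAG3 by 0.38 ± 0.03 and BAG4 by 0.38 ± 0.03, and BAG1 was higher by 0.14 ± 0.03. BAG3 averaged 52.9 CPM in triple KD and 69.0 CPM in control.

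Of 19 HSP90 and co-chaperone genes 5 were higher and 8 lower. The cytosolic HSP90 genes were called higher, HSP90AB1 by 0.13 ± 0.02 on the log2 scale and HSP90AA1 by 0.08 ± 0.02, but their ER paralogue HSP90B1, also on the list, was not called (981 CPM in triple KD and 986 CPM in control, adjusted p = 0.810). Also higher was PIH1D1 by 0.18 ± 0.03, while the co-chaperones FKBP4, PTGES3 and PPID fell by 0.17 ± 0.02, 0.14 ± 0.02 and 0.18 ± 0.03. ITGB1BP2, a CHORD-domain relative of CHORDC1, was called higher by 0.75 ± 0.22 but averaged only 0.807 CPM in triple KD and 0.479 CPM in control. Of 6 tested small heat shock genes other than HSPB1, HSPB3 alone was called (higher, with 0.0636 CPM in triple KD and 0.0098 CPM in control), and DESeq2 called none of the 6.

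The cytosolic chaperonin TRiC and its partner prefoldin had 4 of 14 genes higher and 7 lower (5 and 5 with upper-quartile scaling), among them CCT4, which fell by 0.36 ± 0.02 on the log2 scale, PFDN6 and CCT2, which fell by 0.24 ± 0.03 and 0.13 ± 0.02, and PFDN4, PFDN2 and PFDN1, higher by 0.24 ± 0.04, 0.18 ± 0.03 and 0.14 ± 0.03. Of 18 mitochondrial chaperone and protease genes 3 were higher and 7 lower: the protease LONP1 was higher by 0.63 ± 0.02 (290 CPM in triple KD and 187 CPM in control), HSPA9, the mitochondrial HSP70, by 0.10 ± 0.02 and HTRA2 by 0.15 ± 0.04, and YME1L1, GRPEL2 and SPG7 fell by 0.20 ± 0.02, 0.35 ± 0.04 and 0.24 ± 0.03. LONP1 was also called higher in SAFB1 KD (0.26 ± 0.02, adjusted p = 3.70e-15).

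The 16 ER chaperone genes included larger changes, with 5 higher and 8 lower in triple KD. The disulphide isomerase PDIA4 was higher by 1.05 ± 0.02 on the log2 scale (364 CPM in triple KD and 175 CPM in control) and DNAJC3 by 0.55 ± 0.03, and P4HB by 0.09 ± 0.02. PDIA3 fell by 0.68 ± 0.02, the J-domain protein DNAJB9 by 1.06 ± 0.05 and the lectin chaperone CANX by 0.20 ± 0.02. The median log2 fold change of the lists in triple KD ran from -0.23 (other HSP70 genes) to 0.35 (other small heat shock genes, 6 genes, most of them near the floor), with -0.10 for the 10 genes.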

How the data were processed

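Poly(A)+ RNA of HEK293 cells was sequenced as strand-specific libraries, 3 per group. The authors trimmed reads with cutadapt, mapped them with STAR 2.7.9a, using GENCODE annotation on the GRCh38 build, and deposited raw counts of uniquely placed reads per gene, reverse-stranded. Reads that fit several places, or several genes, were thus left out, which lowers genes with close copies.

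Genes with at least 10 counts over the 12 libraries were kept (26688 of 58780). Counts were fitted in edgeR 4.0.16 (R 4.3.3) with TMM scaling, a group term alone and the quasi-likelihood F test, and p-values were adjusted by Benjamini-Hochberg over all genes tested. Standard errors are the log2 fold change over the square root of F. Depth was 56856228 to 75533510 counts per library. Alternatives were upper-quartile scaling, no filter, filterByExpr, DESeq2 1.42.0, limma-voom (limma 3.58.1), a 2-fold test, a replicate block, fits on the compared libraries alone and leaving out each library. The fit was tested on simulated data. Replicate numbers were not taken to pair libraries. Groups came from the labels, and p-values cover the spread between the 3 libraries of a group.

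The 10 genes and the other lists were chosen with earlier results of these data known. From each other list up to 3 called genes in each direction with the smallest adjusted p in triple KD are named, plus called ones with an absolute log2 fold change of at least 0.5. Promoters came from RefSeq (GRCh38.p14), and transcripts from a GENCODE annotation that matched 99.0% of gene IDs. Cells with SAFB2 depleted alone are not analysed here.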

Additional observations from a re-analysis of the deposited data

How the results depend on the processing

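Leaving out 1 library gave 8 to 9 of the 10 genes called in triple KD against control (9 with all libraries), 1 in SAFB1 KD (1), 3 to 4 in SLTM KD (4), 9 to 10 in triple KD against SAFB1 KD (10), 6 to 8 in triple KD against SLTM KD (8) and 2 to 3 in SAFB1 KD against SLTM KD (3). The test for a change over 2-fold (edgeR's glmTreat) called 0 of the 10 in each of the 7 comparisons. An unadjusted quasi-likelihood p below 0.05 was met by 10 in triple KD, 1 in SAFB1 KD and 5 in SLTM KD. It was met by 10 in triple KD against SAFB1 KD and 9 in triple KD against SLTM KD. In SAFB1 KD against SLTM KD 5 met it, and in the departure from the sum 9. The shares of all genes that pass these 2 thresholds are not given here, so neither set of counts can be read as particular to the 10. The departure was called for 5 genes with upper-quartile scaling and for 5 without a filter, in place of 8, and for 5 to 7 when 1 library was left out. The cause was not tested.

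Same-numbered libraries of different groups deviated together only weakly (correlations of -0.03 to 0.14 over 18 pairs, 1 above 0.1). Differently numbered ones gave -0.11 to 0.06 over 36 pairs, with a median of -0.03 against 0.05 for same-numbered pairs. Over all genes a replicate block gave 1847 higher and 1569 lower in SAFB1 KD, in place of 1345 and 1232. In SLTM KD it gave 1311 higher and 1861 lower, in place of 962 and 1509. Of the 10 genes, 5 were called with the block in SAFB1 KD against SLTM KD, in place of 3, and 10 in triple KD against control, in place of 9. The block also added DNAJB1 in triple KD against SLTM KD (adjusted p = 0.0496 by edgeR) and HSPA4 in the departure (adjusted p = 0.0404 by edgeR). It changed no other call of the 10.

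Signs turned only for log2 fold changes near 0 that were called in neither fit. In SAFB1 KD against control HSPD1 was -0.0087 without a filter and -0.0016 with only the libraries compared. HSPA4 was -0.0041 in SLTM KD against control without a filter. In SAFB1 KD against SLTM KD with upper-quartile scaling HSPA4 was -0.013 and DNAJA1 -0.0089. Leaving out 1 library gave, for SAFB1 KD against control, -0.0038 to 0.021 for HSPA8, -0.0015 to 0.014 for HSPA4, -0.0022 to 0.015 for HSPH1, -0.0083 to 0.040 for DNAJA1, -0.0087 to 0.088 for HSPB1 and -0.0088 to 0.0017 for HSPD1. For SLTM KD against control it gave -0.0039 to 0.0080 for HSPA4 and -0.0083 to 0.023 for DNAJA1, and for SAFB1 KD against SLTM KD -0.0083 to 0.011 for HSPA4 and -0.020 to 0.034 for DNAJA1. With 3 libraries a group and a biological coefficient of variation of 2.14%, changes of a few percent lie at the edge of what was called.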
